A study of Mus musculus with 4 samples.

Results

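The XN1 neural stem cell line contained cells in which transcripts of inflammatory and reactive astrocyte genes were captured together. The cells described here were selected by sequence reads: a cell of the XN1 library was taken when it held at least 1 read of 2 or more of Cxcl1, Ccl2, Cd14 and Serpina3n. This selected 2281 of the 14452 XN1 cells, or 15.8% (95% exact binomial interval 15.2 to 16.4), out of 45325 cells in the tables used here. They were compared with the 8828 XN1 cells that had no read of any of the 4 genes, and the 3343 cells with reads of exactly 1 of them were kept apart. Because reads of the 4 genes made the selection, their levels in the selected cells are given as a description.

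XN1 is one of 4 mouse neural stem cell lines derived from epiblast stem cells (EpiSCs, of 129/Sv origin) and sequenced as 1 single-cell library each. All lines were grown with EGF and FGF2, mitogens for neural stem cells, each at 10 ng/ml. XN1 and XN4 also received 10 µM XAV939, which inhibits Wnt signalling by stabilising Axin, CN4 received 2 µM CHIR99021, which activates Wnt signalling by inhibiting GSK3, and KN1 received neither. The XAV939 used for XN1 came from another supplier than that used for XN4, and it formed crystals in the medium, so that supplier, precipitate and line cannot be told apart. Each line is a single established line, and with 1 library per line there is no replicate and no test: all intervals below cover counting error only, and cells are not replicates of the line. Growing cells were dissociated and held cold in a preservative for as long as 2 weeks before capture, and effects of these steps on stress genes were not tested.

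The XN1 library held a median of 5981.5 reads and 2379 genes per cell, against 12615 reads in XN4 and 9173 in CN4. The unit was the sequence read, not the molecule, so that several reads can come from 1 captured transcript. The XN1 table shared 139 cell indices with the XN4 table and 320 with the CN4 table, and no doublet caller was run. Capture of the 4 genes depended on depth, since the share of selected cells rose from 5.74% in the tenth of XN1 cells with the fewest reads to 31.3% in the tenth with the most. After every cell was thinned to 3600 reads, 11.6% (11.0 to 12.2) of 12594 XN1 cells still met the rule, with 1858 shallower cells left out. In CN4, 0.512% (0.414 to 0.627) of 18157 cells met the same rule, or 0.193% after thinning.

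**Figure D1:**
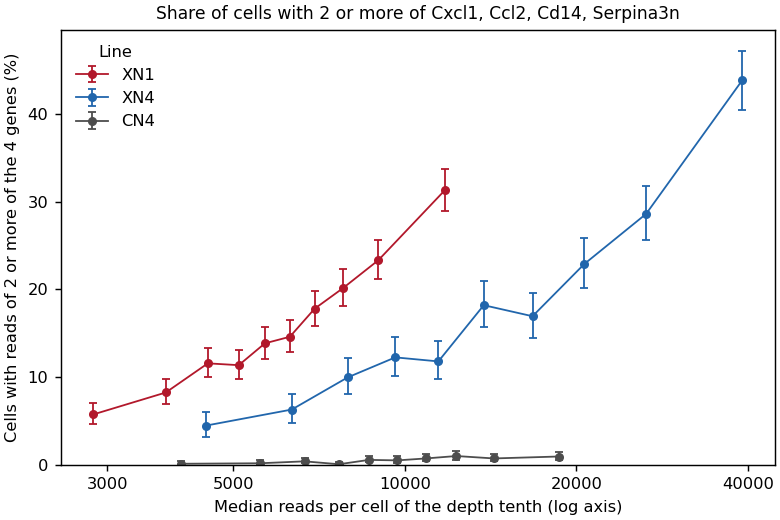
Share of cells with reads of 2 or more of the 4 genes (vertical axis, percent) in 10 classes of cells by depth (horizontal axis, median reads per cell, log axis) in XN1, XN4 and CN4; bars are 95% exact binomial intervals. The XN1 share rose from 5.74% to 31.3%, and the CN4 share stayed near 0.

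Reactive astrogliosis is the response of glial cells to injury, infection or inflammatory cytokines. Signals through Toll-like and cytokine receptors release the transcription factor NF-κB from its inhibitors, and C/EBP and STAT3 factors act beside it, so that chemokines, acute-phase proteins, complement components and the inhibitors of NF-κB themselves are transcribed. Of the genes used for selection, Cxcl1 encodes a chemokine that attracts neutrophils and Ccl2 one that attracts monocytes. Cd14 encodes a coreceptor that hands bacterial lipopolysaccharide to Toll-like receptors, and Serpina3n a secreted protease inhibitor that is widely used as a marker of reactive astrocytes.

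The selected cells carried all combinations of the 4 genes. Cxcl1 was captured in 73.3% of them, Cd14 in 69.2%, Ccl2 in 65.8% and Serpina3n in 37.8%. Most cells (1402) had reads of exactly 2 of the genes, 708 had 3 and 171 had all 4. The most frequent combination was Cxcl1 with Ccl2 and Cd14, found in 461 cells, followed by Cxcl1 with Ccl2 alone in 432 and Cxcl1 with Cd14 alone in 321. Many cells passed the rule on few reads. Cells just inside it, with exactly 2 genes, had a median of 4 reads of the 4 genes, and 22.0% of these had the minimum of 2 reads. Cells just outside it, with exactly 1 gene, had a median of 1 read. At the other end single cells held up to 341 reads of Cxcl1 and 297 of Ccl2.

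Each of the 4 genes was captured more often in cells chosen by the other 3 genes, which is a description only, since the 4 genes were themselves chosen with results of these data known. Among XN1 cells with 2 or more of Ccl2, Cd14 and Serpina3n, 57.7% (55.1 to 60.3) had a read of Cxcl1, against 9.85% (8.36 to 11.5) of cells of like depth with none of those 3. The corresponding shares were 49.7% and 11.6% for Ccl2 and 52.7% and 17.6% for Cd14. Serpina3n showed the narrowest gap, 22.6% (20.7 to 24.6) against 9.96% (8.62 to 11.4). Within 20 strata of depth, Cxcl1 and Ccl2 were captured in the same cell 2.82 times as often as the product of their shares, and Ccl2 with Serpina3n 1.48 times as often, with the other 4 pairs between these values.

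In the GRCm38 assembly (GENCODE M21), Cxcl1 lies at chr5:90891241-90893115 on the plus strand, Ccl2 at chr11:82035571-82037453 on the plus strand and Serpina3n at chr12:104406729-104414329 on the plus strand. Ccl2 overlaps Gm17268 on the opposite strand, and the sources used here do not say whether reads were counted by strand. Serpina3n belongs to a cluster of closely related protease inhibitor genes. Reads of the 5 other Serpina3 genes with any read in XN1 were found in 0 to 2 of the paired selected cells each.

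The comparison of all other genes was made between cells of like depth. Each selected cell was paired with the unused comparison cell nearest in total reads, within 5% and leaving the 4 genes out of the total. This gave 2264 pairs, with 17 selected cells unpaired, and medians of 7154.5 and 7154 reads. The level of a gene was its mean over cells in reads per 10000 reads of the cell, and a ratio is the level in the selected cells divided by that in the paired comparison cells. Of the 9841 genes captured in at least 5% of either set, 430 were at least 1.5-fold higher in the selected cells, 4.37% of the genes compared, and 752 were at least 1.5-fold lower, 7.64%. The words higher and lower below refer to this size limit and to no test. The shares of 4.37% and 7.64% over all genes are the background for the counts of list genes in XN1 pairs below. Of the 9841 genes, 224 reached the 5% limit only in the selected cells and 412 only in the paired cells. Among the 9205 that reached it in both sets, 324 were higher (3.52%) and 525 lower (5.7%). These are the background for counts over genes that reached the limit in both sets.

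Among genes captured in at least 10% of the selected cells, Lcn2, C3, Steap4 and Shisa3 had the highest ratios. Lcn2, which encodes a secreted lipocalin that withholds iron from bacteria and is a marker of reactive astrocytes, was captured in 27.8% (26.0 to 29.7) of selected cells and 3.40% (2.69 to 4.23) of paired cells, with a ratio of 41.4. C3, the central component of complement, was captured in 15.9% against 1.59% (ratio 17.9). Steap4, a metalloreductase induced by inflammatory cytokines, was captured in 35.7% against 5.96% (ratio 10.6). Shisa3, which encodes an adaptor that holds back Wnt and FGF receptors in the endoplasmic reticulum, was captured in 56.5% against 16.9% (ratio 9.40). These genes were named for their high ratios, so the gaps between the 2 shares are a description. Among these, Lcn2 and C3 reached the 5% capture limit only in the selected cells, as did others of the 20 highest named below.

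Further genes among the 20 highest encoded regulators and surface proteins. Cebpd, a C/EBP transcription factor of the acute-phase response, was captured in 61.1% (59.1 to 63.1) of selected cells and 23.4% (21.6 to 25.2) of paired cells, with a ratio of 4.40. The cytokine gene Tslp was captured in 52.3% against 27.9% (ratio 4.75), and the adhesion molecule gene Vcam1 in 20.1% against 5.96% (ratio 4.33). Tm4sf1, a membrane protein gene, was captured in 56.4% against 26.6% (ratio 4.45). Slc7a11, which encodes the cystine importer used for glutathione synthesis, had a ratio of 3.896, and Cdkn2b, an inhibitor of cyclin-dependent kinases, a ratio of 4.28. The remaining genes among the 20 highest were the long noncoding RNA gene Gm48228 (7.60), Tnfaip2 (6.58), Lgi2 (5.87), the sphingosine phosphate receptor gene S1pr3 (5.60), Casp4 (4.12), Tgm2 (4.11), Cemip (4.11), the kinase gene Ripk2 (4.04), Bcl3 (3.70) and Maff (3.58), with ratios in brackets. Gm48228, Tnfaip2, Lgi2, S1pr3, Casp4 and Tgm2 reached the 5% capture limit only in the selected cells. Among the 20 highest, Shisa3, Cebpd, Tslp, Tnfaip2 and Vcam1 are some of those that overlap another annotated gene on the opposite strand.

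**Figure D2:**
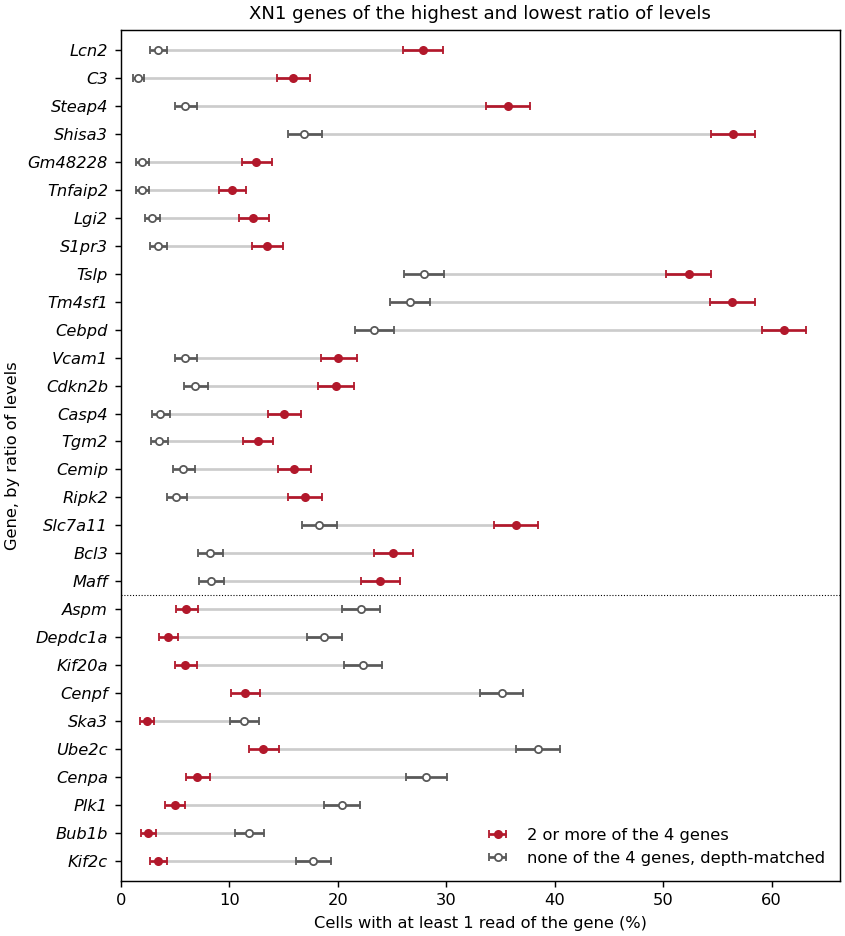
Share of XN1 cells with at least 1 read (horizontal axis, percent) of the 20 genes of highest and the 10 of lowest ratio of levels (vertical axis), in selected cells (filled) and depth-matched comparison cells (open); bars are 95% exact binomial intervals over 2264 cells each. Lcn2 was captured in 27.8% against 3.40%, and Kif2c in 3.45% against 17.7%.

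Upstream sequences are shown for the selection gene Cxcl1 and for Nfkbia, Steap4 and C3, which were higher in the selected cells, because they hold matches to motifs of the factors named above. They are the 250 bases before the transcript start in RefSeq (GRCm38.p6), written along the strand of the gene, with matches in capitals. The motifs searched on both strands were the κB motif of NF-κB (10 letters, by its name), TTGCNNAA for C/EBP factors and TGANTCA for AP-1 factors.

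Cxcl1, chr5:90890995-90891244, plus strand, with κB matches beginning 71 and 70 bases before the start, which overlap on opposite strands:
Cxcl1: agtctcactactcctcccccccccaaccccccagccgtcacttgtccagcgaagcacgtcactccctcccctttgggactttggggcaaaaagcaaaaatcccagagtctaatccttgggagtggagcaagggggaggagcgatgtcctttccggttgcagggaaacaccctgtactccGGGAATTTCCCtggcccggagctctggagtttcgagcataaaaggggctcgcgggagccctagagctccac

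Nfkbia, chr12:55492648-55492897, minus strand, with a κB match on the reverse strand 29 bases before the start:
Nfkbia: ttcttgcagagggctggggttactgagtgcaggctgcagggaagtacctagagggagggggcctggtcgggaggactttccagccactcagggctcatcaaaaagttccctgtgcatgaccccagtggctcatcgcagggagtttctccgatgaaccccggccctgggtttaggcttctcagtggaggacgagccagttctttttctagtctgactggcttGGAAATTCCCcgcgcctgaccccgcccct

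Steap4, chr5:7960222-7960471, plus strand, a window that GENCODE annotates in part as exon, with κB matches 250 and 226 bases and a C/EBP match 87 bases before the start:
Steap4: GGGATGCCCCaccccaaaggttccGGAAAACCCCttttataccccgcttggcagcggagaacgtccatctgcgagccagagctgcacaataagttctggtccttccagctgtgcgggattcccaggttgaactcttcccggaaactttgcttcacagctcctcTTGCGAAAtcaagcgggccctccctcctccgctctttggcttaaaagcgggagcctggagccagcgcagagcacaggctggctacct

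C3, chr17:57228137-57228386, minus strand, with a C/EBP match 45 bases before the start:
C3: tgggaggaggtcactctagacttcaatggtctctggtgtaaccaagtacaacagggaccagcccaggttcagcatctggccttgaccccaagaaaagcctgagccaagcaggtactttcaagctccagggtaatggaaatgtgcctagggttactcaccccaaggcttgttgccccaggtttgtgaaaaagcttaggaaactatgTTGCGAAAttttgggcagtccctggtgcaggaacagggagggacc

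Of the 20 genes of highest ratio, 14 had an upstream sequence in the RefSeq table, some of them with several entries. In at least 1 entry, 5 of these genes held the κB motif and 5 the C/EBP motif, or 6 and 5 of their 17 sequences, and 0 held the AP-1 motif. The 2 Casp4 sequences overlap and hold the same κB matches, and Maff has 3 sequences, so the 17 are not separate promoters. Among all 32841 upstream sequences of the same length, 7.25% held the κB motif, 9.57% the C/EBP motif and 6.75% the AP-1 motif. The upstream sequences of the selection gene Serpina3n and of Shisa3 held no match to the 3 motifs. A match is a description of the letters only, and the libraries did not measure binding of a factor.

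Genes of the NF-κB pathway and its feedback were higher in larger proportion than the 4.37% of all genes. Of 22 genes in the list, 19 were captured often enough to compare, 13 of these were at least 1.5-fold higher and none lower, with a median ratio of 1.95. Of the 16 captured in at least 5% of both sets 10 were higher, against 3.52% of all such genes. The lists were chosen with earlier results of these data known. The cells were selected partly by the chemokine genes Cxcl1 and Ccl2, a class that NF-κB helps to transcribe. The counts of list genes here and below are therefore a description. Nfkbia, the inhibitor that NF-κB induces to end its own action, was captured in 46.6% (44.5 to 48.6) of selected cells and 21.3% (19.7 to 23.1) of paired cells, with a ratio of 3.48. Nfkbiz, a nuclear cofactor of NF-κB, was captured in 50.3% against 21.4% (ratio 3.53), and the adhesion molecule gene Icam1 in 29.8% against 13.5% (ratio 2.60). Sod2, the mitochondrial superoxide dismutase, was captured in 56.6% against 52.8%, with a ratio of 1.16.

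Other chemokines and cytokines were rarer. Of 26 in the list 7 were compared, and 4 of these, Cxcl2, Cxcl5, Ccl7 and Lif, reached the capture limit only in the selected cells, so that a count of higher genes says little here. Csf1, the growth factor of macrophages and microglia, was captured in 59.9% of selected and 42.4% of paired cells (ratio 1.99), and Cx3cl1, a membrane-bound chemokine, in 26.4% against 13.3% (ratio 2.50). Cxcl5, a neutrophil chemokine, was captured in 9.89% (8.69 to 11.2) against 0.442% (0.212 to 0.811), or 224 against 10 cells, and Ccl7, a monocyte chemokine, in 200 against 8 cells. Cxcl2 was captured in 183 selected cells and in 2 paired cells. Lif, a cytokine that acts through STAT3, was captured in 7.64% against 1.5% (ratio 6.45), whereas the alarmin gene Il33 had a ratio of 1.47.

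Most of the receptor genes compared had ratios nearer to 1. Of the innate and cytokine receptor list, 4 of 11 genes compared were higher, with a median ratio of 1.27, and 1 of the 4, Myd88, reached the capture limit only in the selected cells. Tnfrsf1a, a receptor of tumour necrosis factor, was captured in 39.8% against 28.9% (ratio 1.53), and Myd88, the adaptor of Toll-like receptors, in 8.75% against 4.55% (ratio 2.04). Il6st, the shared receptor subunit of the interleukin-6 family, had a ratio of 1.23. The Toll-like receptor genes Tlr4 and Tlr2 were below the capture limit, with Tlr4 captured in 77 selected and 11 paired cells (3.40% against 0.486%) and Tlr2 in 53 and 11. In the JAK-STAT3 and C/EBP list 3 of 11 were higher, namely Cebpd, Cebpb with a ratio of 2.79 and Osmr with 2.10, while Stat3 was captured in 75.5% against 71.5% (ratio 1.118) and Jak1 had a ratio of 1.18.

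Of the pan-reactive astrocyte list 7 of 10 genes compared were higher and none lower, with a median ratio of 2.27, against 4.37% higher over all genes. Of the 7 that reached the capture limit in both sets 4 were higher, against 3.52% of all such genes. Besides Lcn2, Steap4, S1pr3 and Osmr the 7 higher genes were Cp, the ferroxidase ceruloplasmin (97.7% against 88.9%, ratio 2.45), Timp1, an inhibitor of matrix proteases (18.9% against 14.3%, ratio 1.81), and Gfap, the intermediate filament that defines astrocytes (6.27% (5.31 to 7.35) against 2.30%, ratio 3.38). Vim, the filament gene of neural stem cells and reactive astrocytes, was captured in 98.7% against 98.4% (ratio 0.951). Of the list tied to inflammation-reactive astrocytes 3 of 5 were higher (Gbp2, Amigo2 and H2-D1) and Fkbp5 was lower. Of the list tied to ischaemia 3 of 7 were higher (Tm4sf1, Ptx3 and Ptgs2) and Emp1 and B3gnt5 were lower. Of these genes Gbp2 (7.16% against 2.30%), Ptx3 (9.28% against 3.98%) and Ptgs2 (8.22% against 0.972%) reached the capture limit only in the selected cells, and Emp1 (1.90% against 8.22%) only in the paired cells. Among genes that reached it in both sets 2 of 4 and 1 of 4 in the respective lists were higher, and 1 of 4 in each was lower. The ratios of Fkbp5 and B3gnt5 turned to 1.116 and 1.163 in the cells without cell cycle reads described below.

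Of the complement list 5 genes were compared, of which C3, C1ra (7.16% against 2.92%) and C1rl (5.39% against 3.36%) reached the capture limit only in the selected cells. C1s1 was captured in 11.7% against 5.30% (ratio 2.29), and C4b had a ratio of 1.45. Immediate early genes, which respond to many stimuli including dissociation, were higher in 8 of 17, and in 7 of the 15 that reached the capture limit in both sets. Over all genes compared 4.37% were higher, and 3.52% of those that reached the limit in both sets. Ier3 had a ratio of 3.48, Junb of 2.43 and Klf4 of 2.06, whereas Jun had 1.11 and Jund 1.49, and Fos had 1.52 (0.992 when the rule left out Serpina3n). Oxidative stress and metal genes were higher in 6 of 9, among them the metallothionein gene Mt2 (84.6% against 74.3%, ratio 2.37), Mt1 (ratio 1.95) and Hmox1, which degrades haem (46.3% against 32.0%, ratio 1.94). Interferon response and antigen presentation genes were higher in 3 of 11, 1 of them Gbp2, with B2m, the light chain of class I molecules, captured in 76.2% against 66.3% (ratio 1.56) and H2-K1 at 1.37. Endoplasmic reticulum and integrated stress genes were higher in 3 of 11, with Dnajb9 at 1.57, Hspa5 at 0.918 and Atf4 at 1.11.

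**Figure D3:**
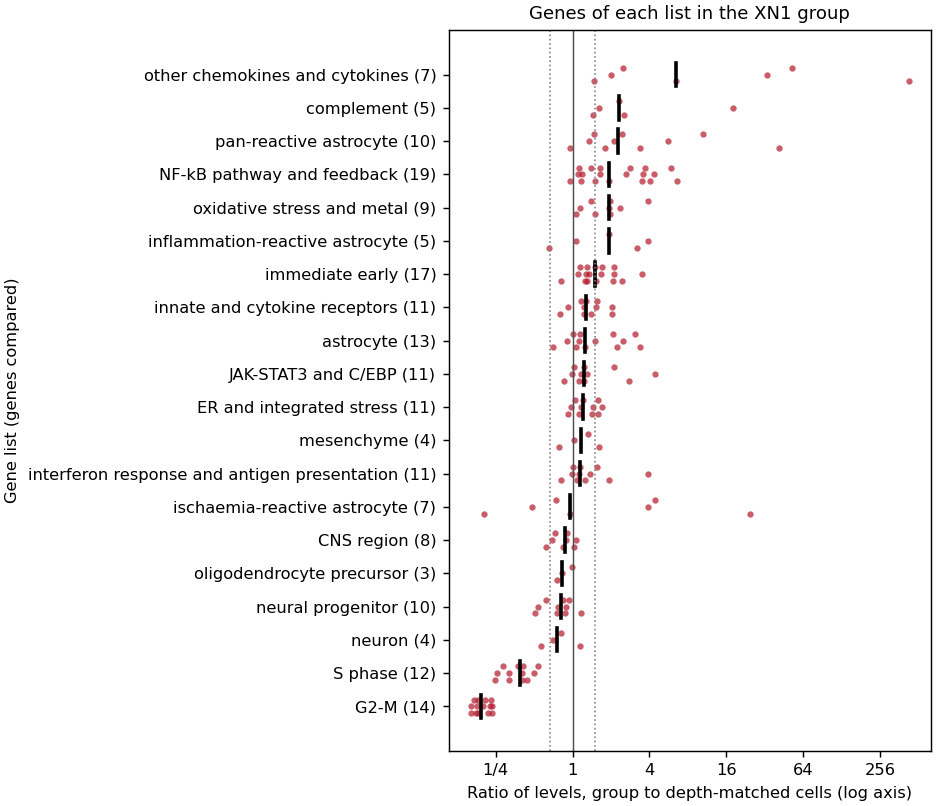
Ratio of levels of each compared gene (points, log axis) in the gene lists (vertical axis, number of genes compared in brackets), with the median of the list as a bar and dotted lines at 1.5-fold higher and lower. The NF-κB list had a median of 1.95 and the G2-M list, the lowest, a median of 0.191. The rightmost point is Cxcl2, which was captured in 2 paired comparison cells.

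Most selected cells had reads of the glial progenitor markers Slc1a3, Sox9, Nfia, Olig1 and Olig2, with ratios from 0.702 for Nfia to 1.25 for Sox9. The name of a reactive glial program held for their inflammatory genes more than for Gfap, which was captured in few cells of either set. Of the astrocyte list 5 of 13 genes compared were higher, or 4 of 12 without Gfap, which reached the capture limit only in the selected cells. Slc1a3, a glutamate transporter of radial glia and astrocytes, was captured in 93.8% against 93.6% (ratio 1.06), Slc1a2, the transporter of mature astrocytes, in 50.4% against 30.4% (ratio 2.46), Apoe in 78.6% against 52.6% (ratio 2.24) and Clu in 30.2% against 12.7% (ratio 3.07). The glial transcription factor genes Sox9 and Nfia had ratios of 1.25 and 0.702. The other astrocyte genes compared were S100b (2.08), Sparcl1 (1.499), Glul (1.147), Aldh1l1 (1.115), Gja1 (1.007) and Aldoc (0.899), with ratios in brackets. Of the oligodendrocyte precursor list none of 3 was past the limit, with Olig2 captured in 85.5% against 91.2% (ratio 0.826) and Olig1 in 91.1% against 90.6%.

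Neural progenitor genes had a median ratio of 0.806 over the 10 compared. Sox3, a transcription factor gene of early neural progenitors, was captured in 18.5% against 30.4% (ratio 0.540) and Pax6, which patterns the neural tube, in 13.7% against 22.3% (ratio 0.618). Sox2 was captured in 64.7% (62.7 to 66.6) against 70.4% (68.5 to 72.3), with a ratio of 0.888, and Nes, the filament gene of neural stem cells, in 64.1% against 73.7% (ratio 0.761). Of the CNS region genes Pax6 was the only one of 8 compared past the limit. En1 had a ratio of 0.888, En2 of 1.02, Hoxa5 of 0.848 and Irx3 of 1.06, while Nkx2-2 (12.4% against 15.5%, ratio 0.691) and Hoxa3 (10.9% against 15.0%, ratio 0.736) lay further from 1. Hoxa2 (2.21% against 4.28%) and Gbx2 (1.86% against 2.78%) were below the capture limit. Of the neuron list Dcx was lower (0.567) among 4 compared, and of the mesenchyme list Col6a1 was higher (1.60) among 4.

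Immune and vascular cell markers were at or near 0. Of the 16 microglia and macrophage genes 13 were in the table and none of these reached the capture limit. The highest, P2ry12, was captured in 1.90% of selected and 1.59% of paired cells. Their summed level was 0.0810 reads per 10000 in the selected cells and 0.0696 in the paired cells. Ptprc, C1qa, Trem2, Tyrobp, Spi1 and Tmem119 had no read in the 2264 paired selected cells, which allows a share of cells with a read of up to 0.133% each when 3 counts are taken as the floor. None of the 5 endothelial genes in the table was captured in more than 0.574% of selected cells.

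Cell cycle genes were lower, with all 12 compared genes of the S phase list and all 14 of the G2-M list at least 1.5-fold lower, or 26 of the 752 lower genes. Over all genes compared 7.64% were lower. Of the list genes, 1 of the S phase list and 3 of the G2-M list reached the capture limit only in the paired cells. Of those that reached it in both sets, 11 of 11 in each list were lower, against 5.7% of all such genes. The median ratios of the 2 lists were 0.386 and 0.191. Mki67, a marker of dividing cells, was captured in 11.97% (10.7 to 13.4) of selected cells and 39.6% (37.6 to 41.6) of paired cells, with a ratio of 0.176. Top2a, which untangles replicated DNA, was captured in 21.2% against 48.3% (ratio 0.205), Hmgb2 in 20.9% against 50.6% (ratio 0.201) and Rrm2, a subunit of ribonucleotide reductase, in 10.3% against 33.8% (ratio 0.2495). The 10 genes of lowest ratio, from Kif2c at 0.137 to Aspm at 0.175, included genes of spindle and kinetochore proteins such as Cenpf (0.168), the mitotic kinase gene Plk1 (0.1599) and Ube2c (0.161), whose product marks proteins for degradation at mitotic exit. Of these 10, Kif2c, Bub1b, Plk1, Ska3 and Depdc1a reached the capture limit only in the paired cells.

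Part of the size of this difference moved with depth matching. Paired comparison cells were deeper than comparison cells in general (medians of 7154 and 5585.5 reads), and 14.5% of them lacked every read of the S phase and G2-M lists, against 19.6% of all comparison cells and 24.5% of all selected cells. Without depth matching the ratio of Mki67 was 0.202 and that of Rrm2 0.316. Other measures also moved with the selection. Median mitochondrial reads were 16.1% in selected and 13.1% in paired cells, and ribosomal protein reads 4.83% and 6.48%, and the part of these shares in the results was not tested beyond leaving these genes out of the totals.

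The higher genes were therefore also compared among cells with no read of any of the 26 S phase and G2-M genes, a choice made after seeing the data. In 541 pairs of such cells, 388 of 9006 genes were higher (4.31%) and 538 lower (5.97%). Lcn2 was captured in 28.8% of these selected cells and 5.36% of their pairs (ratio 23.1), C3 in 19.04% against 0.924% (ratio 19.1), Steap4 in 37.9% against 5.92% (ratio 14.0) and Shisa3 in 55.8% against 17.7% (ratio 6.72). The NF-κB list had 13 higher of 18 compared and the pan-reactive astrocyte list 8 of 10. The NF-κB count includes genes that reached the capture limit only in the selected cells, such as Ripk2 (16.6% against 2.59%). For these pairs no count over genes that reached it in both sets was made. Fewer genes were higher than in all pairs in the oxidative stress and metal list (3 of 9), the innate and cytokine receptor list (2 of 11) and the immediate early list (6 of 16, with 1 lower), and likewise in the astrocyte list (4 of 13, with 1 lower), the endoplasmic reticulum stress list (2 of 11), the interferon list (2 of 9) and the mesenchyme list (0 of 4, with 1 lower). Of the 85 named genes past the limit in all pairs that could be compared here, 81 kept their direction and 65 were still past the limit. Many of the 85 were named because they were past the limit in all pairs, so these counts are a description. They also take in genes below the capture limit, such as Sox10. In the 1707 pairs with some read of these lists the ratios were 36.4 for Lcn2, 20.9 for C3, 12.2 for Steap4 and 9.67 for Shisa3. These 4 genes were named for their high ratios in all pairs, which hold many of the same cells, and the values are a description.

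Several of these differences grew with the number of the 4 genes captured. Each class was paired anew with cells that had none of the 4. Lcn2 was captured in 8.27% of cells with exactly 1 gene, 19.1% with 2, 38.7% with 3 and 55.6% with all 4, while its share in the paired cells stayed between 3.07% and 5.85%. C3 was captured in 4.19%, 11.8%, 18.8% and 37.4% in the same order, and Shisa3 in 27.0%, 48.1%, 66.1% and 87.1%. Cebpd reached 71.5% at 3 genes and 70.2% at 4, which lie within each other's intervals. Other ratios were smaller at 4 genes than at 3, among them those of Maff (5.38 and 4.32), S1pr3 (15.4 and 5.11), Gm48228 (14.5 and 9.25), Vcam1 (8.08 and 5.89) and Clu (4.68 and 3.16), and the class with all 4 held 171 cells. The ratio of Mki67 was 0.486, 0.229, 0.110 and 0.0997 for 1 to 4 genes, and that of Sox2 0.991, 0.927, 0.845 and 0.704. The share of cells with any S phase or G2-M read did not fall in this way. It was 76.5%, 74.7%, 76.0% and 80.1% for 1 to 4 genes, against 82.3%, 84.6%, 87.3% and 88.3% in their paired cells. For the genes above, cells with exactly 1 gene stood between the comparison cells and the selected cells. This is a description only. The classes are counts of the selection genes, and most genes shown were named for differing between selected and comparison cells.

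**Figure D4:**
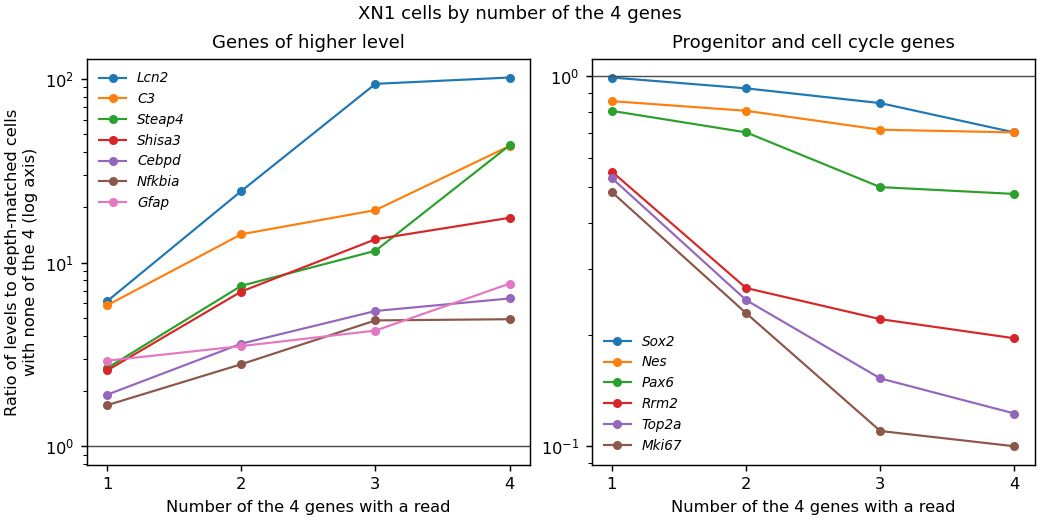
Ratio of levels to depth-matched cells with none of the 4 genes (vertical axis, log scale) in XN1 cells with reads of exactly 1, 2, 3 or 4 of them (horizontal axis), for higher genes (left) and progenitor and cell cycle genes (right). The ratio of Shisa3 rose from 2.59 to 17.6 and that of Mki67 fell from 0.486 to 0.0997.

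The classes defined by a single pair of genes were not alike. Among cells with only Cxcl1 and Ccl2, the ratio was 4.36 for Nfkbia, 4.59 for Maff and 1.30 for Gfap. Among those with only Cd14 and Serpina3n, the ratio was 1.01 for Nfkbia, 0.760 for Maff and 4.58 for Gfap, and Cebpd (2.55) and Shisa3 (9.64) were higher in these too. The Cd14 and Serpina3n class held 268 cells and the Cxcl1 and Ccl2 class 432, and the difference between the classes itself was not tested. Mki67 was lower in all 6 pair classes, with ratios from 0.109 to 0.349.

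The selected cells also lay near each other by their other genes. In 30 principal components of 2000 variable genes, made without the 4 genes, 41.4% of the 30 nearest neighbours of a selected cell were selected cells, against 19.1% given by the depth of the neighbours alone, a ratio of 2.17. For cells with 3 or 4 of the genes the shares were 32.2% and 7.91% (ratio 4.07). For cells with a read of Mki67 they were 76.2% and 30.4% (ratio 2.50). When the S phase and G2-M genes were also left out, the first ratio was 2.16 and that of the Mki67 cells 2.48, so that cell cycle structure remained in these components and its part in the first ratio was not tested.

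The same rule was applied to the other lines whose reads were tabulated. In XN4, 1531 of 8741 cells (17.5%, interval 16.7 to 18.3) met it, and 89.9% of these had Cxcl1 and Ccl2 alone. XN4 was the deeper library, and at 3600 reads per cell 9.04% (8.44 to 9.66) of its cells met the rule, below the 11.6% of XN1. At this depth the shares with Cxcl1 were 13.1% in XN1 and 14.4% in XN4, and those with Ccl2 12.9% and 26.3%. Cd14 was captured in 14.3% of XN1 cells against 0.582% of XN4 and 0.534% of CN4 cells, and Serpina3n in 7.73% against 0.268% and 0.380%. The Cd14 and Serpina3n parts of the combination were thus captured in XN4 in shares near those in CN4. In CN4 only 93 cells met the rule, 37.6% of them with Cd14 and 37.6% with Serpina3n. In KN1, 1.61% of 3975 cells had a read of Ccl2, and the other 3 genes are not listed in the table of that line, so the rule was not applied.

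Cells selected by the rule in XN4 were compared by the same genes. Of the 20 genes of highest ratio in XN1, 16 were at least 1.5-fold higher in 1366 depth-matched pairs of XN4 cells, where 5.08% of all genes compared were. Lcn2 was captured in 67.1% against 25.7% (ratio 9.30), C3 in 42.5% against 11.7% (ratio 4.90) and Nfkbia in 84.5% against 60.0% (ratio 2.99). Of the NF-κB list 19 of 21 genes were higher, with a median ratio of 2.77. This count includes genes that reached the capture limit only in the selected XN4 cells, such as Icam1 (7.98% against 2.27%). A count over genes that reached it in both sets was not made for XN4. Shisa3 and S1pr3 went the other way, with ratios of 0.727 and 0.722. Of the pan-reactive astrocyte list 6 of 10 genes were higher. Of the astrocyte list none of 8 was higher and 2 were lower, Clu (ratio 0.552) and Sparcl1 (0.580). Gfap was captured in 0.220% of selected XN4 cells, and Olig1 had no read in either set. Sox2 was rarely captured in XN4 as a whole, in 1.03% of selected and 0.512% of paired cells. Of the 10 genes of lowest XN1 ratio, 4 were at least 1.5-fold lower in XN4, with a median ratio of 0.685. None of the 12 S phase genes and 2 of the 14 G2-M genes were at least 1.5-fold lower in XN4, against 3.4% of all genes, and the ratio of Mki67 was 0.720.

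The 93 CN4 cells were compared with all 17318 CN4 cells that had none of the 4 genes, weighted by depth. With no limit on capture, 19 of the 20 highest XN1 genes were at least 1.5-fold higher, and several of them, such as Lcn2 and Casp4, were near 0 in the comparison cells. Of the 20, only Shisa3, Cebpd, Vcam1, Cdkn2b, Ripk2 and Maff were captured in at least 5% of both the 93 cells and the comparison cells. Lgi2 went the other way, captured in 3.23% against 4.81% (ratio 0.918). C3, counted as higher, was captured in 1.08% of the 93 CN4 cells against 0.507% of the comparison cells (ratio 1.92). Among all genes captured in at least 5% of either set, a limit that 18 of the 20 met, 11.4% were higher. No share over genes that reached it in both sets was made for CN4. Nfkbia was captured in 73.1% of the CN4 cells and 28.5% of their comparison cells (ratio 5.81), Steap4 in 22.6% against 1.46% (ratio 25.5) and Gfap in 15.1% against 3.75% (ratio 9.55). Steap4 and Gfap were thus captured in less than 5% of the comparison cells. The 10 genes of lowest XN1 ratio had ratios from 0.216 to 0.381 in CN4, where 18.3% of all genes were at least 1.5-fold lower, and Mki67 was captured in 33.3% against 69.7% (ratio 0.332). The differences between lines were not tested, with 1 library for each.

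**Figure D5:**
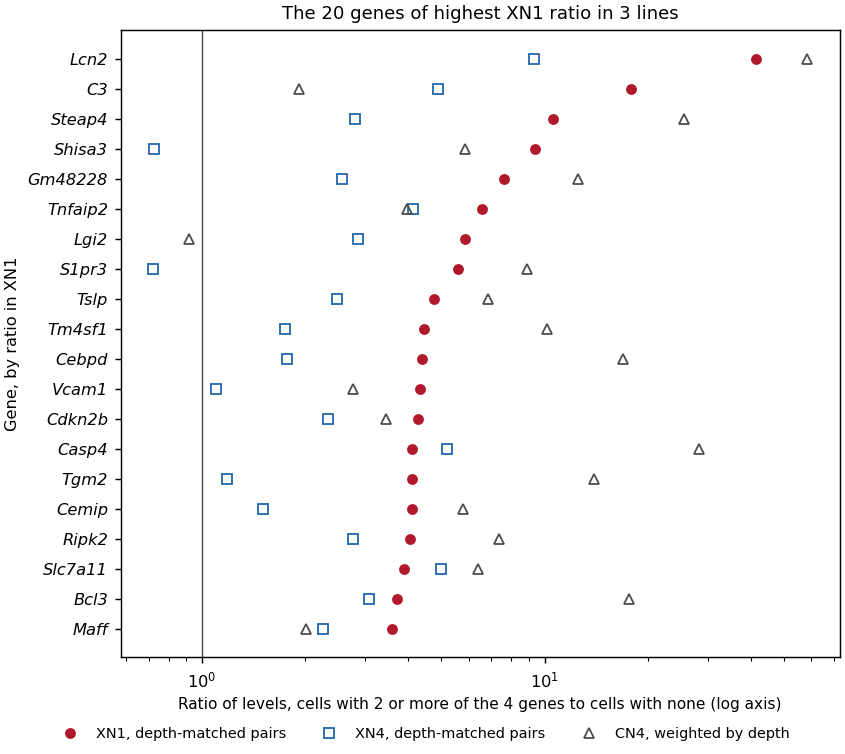
Ratio of levels of the 20 genes of highest XN1 ratio (vertical axis) between cells with 2 or more of the 4 genes and cells with none (horizontal axis, log scale) in XN1, XN4 and CN4. XN1 and XN4 points are ratios over depth-matched pairs, and CN4 points are weighted by depth. Lcn2 stood at 41.4 in XN1, 9.30 in XN4 and 58.3 in CN4, and Shisa3 was below 1 only in XN4. The CN4 value of Lcn2 rests on capture in 7.53% of 93 cells against 0.145% of comparison cells.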

How the data were processed

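Single-cell RNA sequencing libraries were made by the authors with BD Rhapsody whole transcriptome capture, 1 per line. The deposited tables of counts give sequence reads per gene and cell from the BD Rhapsody pipeline (GRCm38, with the build mm10 in the submitters' processing notes), intronic reads included, per the file headers. The deposited normalized tables give the natural log of 1 plus reads per 10000, made by the authors in Seurat 4.3.0 after ribosomal protein and mitochondrial genes were left out. They served only to name the XN1 cells of one alternative and for KN1, whose reads are not used here.

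Here, depth-matched pairs (1 to 1, within 5%, seeded order), levels, capture shares and exact Clopper-Pearson intervals (95%) were computed with Python 3.11.15, numpy 2.4.6, scipy 1.17.1 and pandas 2.3.3, and the comparison was checked on simulated cells. The members, the 22 gene lists and the comparisons were chosen with earlier results of these data known. Named genes were the 4 selection genes, the 20 highest and 10 lowest ratios among genes captured in at least 10% of the set where they are higher, the 4 genes of each list captured in most cells, list genes past 1.5-fold where 8 or fewer, and 7 label checks; other genes are named where a value concerns them. Ribosomal protein and mitochondrial genes were treated only as sums. No test was run, since each line is 1 library. Depth was a median of 5981.5 to 12615 reads per cell. Alternatives changed the rule, depth, matching, scale, capture limit or threshold. One gene of the neural progenitor list is not reported here.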

Additional observations from a re-analysis of the deposited data

How the results depend on the processing

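The share of XN1 cells meeting the rule moved from 15.8% to 8.34% with at least 2 reads of each gene, 11.6% after thinning to 3600 reads, 14.8% without the deepest 5% of cells, and 9.99%, 10.7%, 10.3% and 12.7% when the rule left out Cxcl1, Ccl2, Cd14 or Serpina3n. The count of higher genes moved from 430 to 774 with genes captured in at least 1% and to 150 at a threshold of 2. The count of lower genes moved from 752 to 1159 in the cells of the normalized table, 1140 with genes captured in at least 1% and 323 at a threshold of 2. The count of other chemokines and cytokines moved from 6 to 2 when genes had to be captured in at least 10%. The counts of the NF-κB list (9 to 15) and the pan-reactive list (5 to 8) stayed within 1.5 times their values of 13 and 7 in all alternatives run. Of the named genes past 1.5-fold, ratios crossed 1 for Fos (0.992, rule without Serpina3n) and, in cells without S phase or G2-M reads, Fkbp5 (1.116), B3gnt5 (1.163), Sox10 (1.72) and Aspm (3.12). The sizes of the ratios moved more: over the alternatives Lcn2 (41.4) ranged from 8.18 with captured shares to 65.2 with at least 2 reads of each gene, C3 (17.9) from 9.62 to 26.5, Steap4 (10.6) from 5.99 to 17.0 and Shisa3 (9.40) from 3.34 to 13.2. Mki67 (0.176) ranged from 0.110 when thinned to 0.303 with captured shares, Top2a (0.205) from 0.112 to 0.439 and Rrm2 (0.2495) from 0.167 to 0.316. The cause was not tested. No paired analysis was possible because each line is 1 library and the groups are cells of the same library.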

Other observations

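Among the XN1 cells with no read of an S phase or G2-M gene, genes outside the lists also differed, and those below were chosen after their values were seen. Lower in the selected cells were Sema3d, which encodes a secreted axon guidance protein (4.81% against 11.5% captured, ratio 0.351), Adcyap1r1, the receptor of the neuropeptide PACAP (5.55% against 11.7%, ratio 0.404), Wnt7a (4.81% against 10.9%, ratio 0.461) and the glial factor gene Sox8 (20.5% against 32.7%, ratio 0.482). Ripk2 had a ratio of 7.75 in these cells, with 16.6% against 2.59% captured.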
